A study of Homo sapiens with 24 samples.

Results

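RNA held by AGO2 was set against total RNA in LNCaP cells that had received a scramble control in place of a tested microRNA. The comparison rests on 6 of the 24 arrays of the series, chosen by their titles: 3 arrays of AGO2-bound RNA and 3 of total RNA, both after scramble. The other 18 arrays hold the same 2 kinds of RNA after miR-130a, miR-203 or miR-205, with 3 arrays per group, and enter here as further groups of one model and as repeats of the same contrast on other arrays. The series asked which transcripts those 3 microRNAs bind in prostate cancer cells.

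LNCaP is an androgen-responsive human prostate cancer line grown with fetal calf serum. All 8 groups, scramble included, were nucleofected (a form of electroporation) with 2.5 µg of plasmid, so cells that had received no plasmid are not part of the comparison. The scramble plasmid stood for a scramble microRNA, per the labels. AGO2-bound RNA was taken by co-immunoprecipitation with the antibody 11A and extracted with Trizol, and total RNA was extracted with Trizol as well. RNA from an immunoprecipitation with a control antibody is not analysed here. Each Affymetrix human expression array received 2 µg of RNA, so a difference describes a transcript's share of the RNA on the array and not its amount per cell. In RNA from a whole culture, fewer cells with a transcript and less of it per cell cannot be told apart. Replicates are labelled biological, but separate cultures are not named. Each p-value rests only on how far arrays spread within groups, estimated together over all 8 groups, and that spread may be technical.

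Argonaute proteins carry microRNAs, short RNAs that pair with messenger RNAs mainly through their seed, bases 2 to 8 counted from the 5′ end. The pairing usually lies in the 3′ untranslated region, and the bound transcript is translated less and degraded faster. AGO2 is the human Argonaute best known for cutting fully paired targets. Without an added microRNA, AGO2 carries the microRNAs that the cell makes itself. The arrays do not measure microRNAs, so known targets of microRNA families described in epithelial and prostate cells were examined as lists.

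The mature sequences of those families are shown because the target lists are those of these families and the seed is what members of a family share. They are given 5′ to 3′ from RefSeq on GRCh38.p14, with the seed in capitals. The let-7 family opens the set, since its targets had the highest list median among genes that passed the signal filter described below.
hsa-let-7a-5p: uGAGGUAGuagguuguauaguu
hsa-let-7i-5p: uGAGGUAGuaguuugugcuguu
hsa-miR-98-5p: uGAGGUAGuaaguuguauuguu
hsa-miR-17-5p: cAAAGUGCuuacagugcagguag
hsa-miR-106b-5p: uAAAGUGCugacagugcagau
hsa-miR-21-5p: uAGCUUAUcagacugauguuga
hsa-miR-141-3p: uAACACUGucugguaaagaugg
hsa-miR-200c-3p: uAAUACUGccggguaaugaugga
hsa-miR-26a-5p: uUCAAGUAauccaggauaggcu
hsa-miR-101-3p: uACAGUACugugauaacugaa
hsa-miR-148a-3p: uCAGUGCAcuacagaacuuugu

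The GAGGUAG seed of let-7a, let-7i and miR-98 stands in 11 mature sequences of the RefSeq table. The AAAGUGC seed of miR-17 and miR-106b stands in 8. The seeds of miR-141 and miR-200c differ from each other, with AACACUG in 2 and AAUACUG in 3 mature sequences. The let-7a sequence is encoded at 3 places, among them MIRLET7A1 at chr9:94175962-94175983 on the plus strand. MIR21 lies at chr17:59841273-59841294 on the plus strand, and MIR141 at chr12:6964155-6964176 with MIR200C at chr12:6963742-6963764 beside it, both on the plus strand. Sites of these seeds in transcripts were not searched, and a target list names genes known from other work.

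Levels are log2 signals per probe set, and differences are AGO2-bound minus total RNA after scramble, given as log2 ± SE from limma. A gene with several probe sets is represented by the one of highest mean on the 24 arrays, and 6782 of 11963 genes passed a filter on that mean. A gene was called at a Benjamini-Hochberg adjusted p under 0.05 over those genes, and was called beyond 2-fold where limma's treat test put the difference beyond 1 on the log2 scale. Between 40.4% and 41.5% of probe sets on the 6 scramble arrays lay within 0.05 of the lowest value, the floor, so differences of dim transcripts are compressed. The floor was 2.347327 on all scramble and miR-205 arrays, and arrays that share a floor are taken as 1 normalization run.

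The label LNCaP was checked against 17 luminal prostate markers, of which 13 could be analysed on the arrays. Of these, TRPM8 alone lay at the floor in both kinds of RNA. KLK3, the gene of prostate-specific antigen, averaged 12.67 ± 0.14 in AGO2-bound and 11.72 ± 0.10 in total RNA (SD, n = 3 each). FOLH1, also on the luminal list, was dim, at 2.64 ± 0.51 in AGO2-bound and 3.68 ± 0.57 in total RNA. Of 11 basal epithelial and other prostate line markers, 9 lay at the floor in both kinds of RNA, KRT5, KRT14 and CD44 among them. The others, ITGA6 and VIM, averaged 4.99 and 2.57 in AGO2-bound and 4.16 and 3.21 in total RNA. Of 12 stromal, blood and endothelial markers, 10 lay at the floor in AGO2-bound and 8 in total RNA, with PTPRC and PECAM1 at the floor in both. The summed signal of the basal list ran from 6.29 to 6.49 on AGO2-bound and from 6.14 to 6.23 on total arrays (log2), and that of the stromal list from 6.15 to 6.19 on AGO2-bound and from 6.11 to 6.17 on total arrays.

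Several control probe sets moved with the kind of RNA. The mean of the 18S ribosomal RNA controls was 7.56, 7.39 and 7.95 on the AGO2-bound arrays, against 4.33, 2.83 and 3.05 on the total arrays. The Bacillus spike probe sets averaged 5.59, 5.90 and 6.33 in AGO2-bound and 3.83, 3.75 and 3.78 in total RNA. Neither pair of groups overlapped, and each gave an exact permutation p of 0.10, the smallest that 3 against 3 arrays allow (two-sided). The hybridization spikes overlapped, at 8.52, 8.90 and 9.39 in AGO2-bound and 8.94, 9.19 and 9.25 in total RNA. For GAPDH and ACTB the 3′ control probe set exceeded the 5′ one by more in AGO2-bound RNA, by 1.40 ± 0.17 against 0.77 ± 0.19 in total RNA for GAPDH and by 3.40 ± 0.45 against 2.22 ± 0.19 for ACTB (SD, n = 3 each). The part of ribosomal RNA, spike level and 3′ to 5′ ratio in the results below was not tested. Total scramble replicate 1 stood apart from the other total arrays on 18S signal and on both of these 3′ to 5′ measures, and counts without it are given where they bear on a result.

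**Figure D1:**
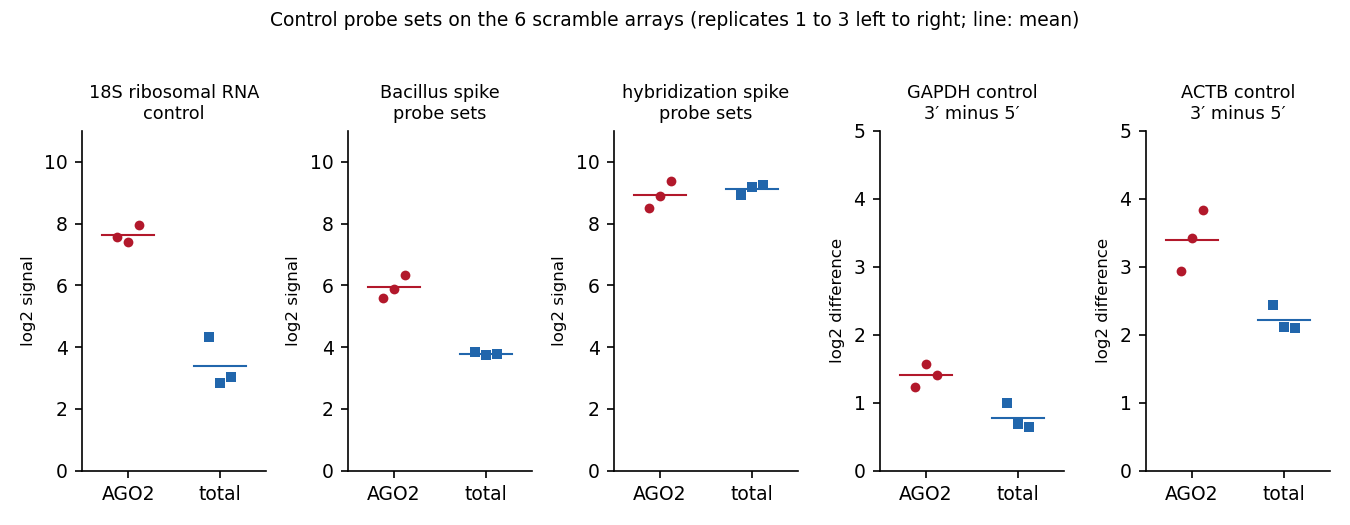
Log2 signal of 3 kinds of control probe sets and log2 difference between 3′ and 5′ probe sets of GAPDH and ACTB on the 3 AGO2-bound (circles, left) and 3 total RNA arrays (squares, right) after scramble, with group means as lines. The 18S and Bacillus spike signals and both 3′ to 5′ differences do not overlap between the groups, while the hybridization spikes do.

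AGO2-bound RNA after scramble was a different mixture from total RNA. Across genes, Pearson's r was 0.984 to 0.991 between AGO2-bound arrays and 0.991 to 0.993 between total arrays, against 0.786 to 0.824 between arrays of the 2 kinds. Of 6782 genes, 2378 (35.1%) were higher and 2565 (37.8%) were lower in AGO2-bound RNA, which together is 72.9% of the genes tested. The AGO2-bound and total arrays did not overlap at 5194 genes (76.6%). Beyond 2-fold, 990 genes (14.6%) were higher and 646 (9.53%) were lower. Differences reached further upward than downward: 62 genes were higher by over 4 on the log2 scale and 4 genes were lower by as much. The median over all genes was -0.05, and the values ran from -5.15 to 6.86. Centring every array on its median would move all differences by -0.13, which leaves 2149 genes higher and 2953 lower. Without total scramble replicate 1, 2339 genes were higher and 2398 lower.

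**Figure D2:**
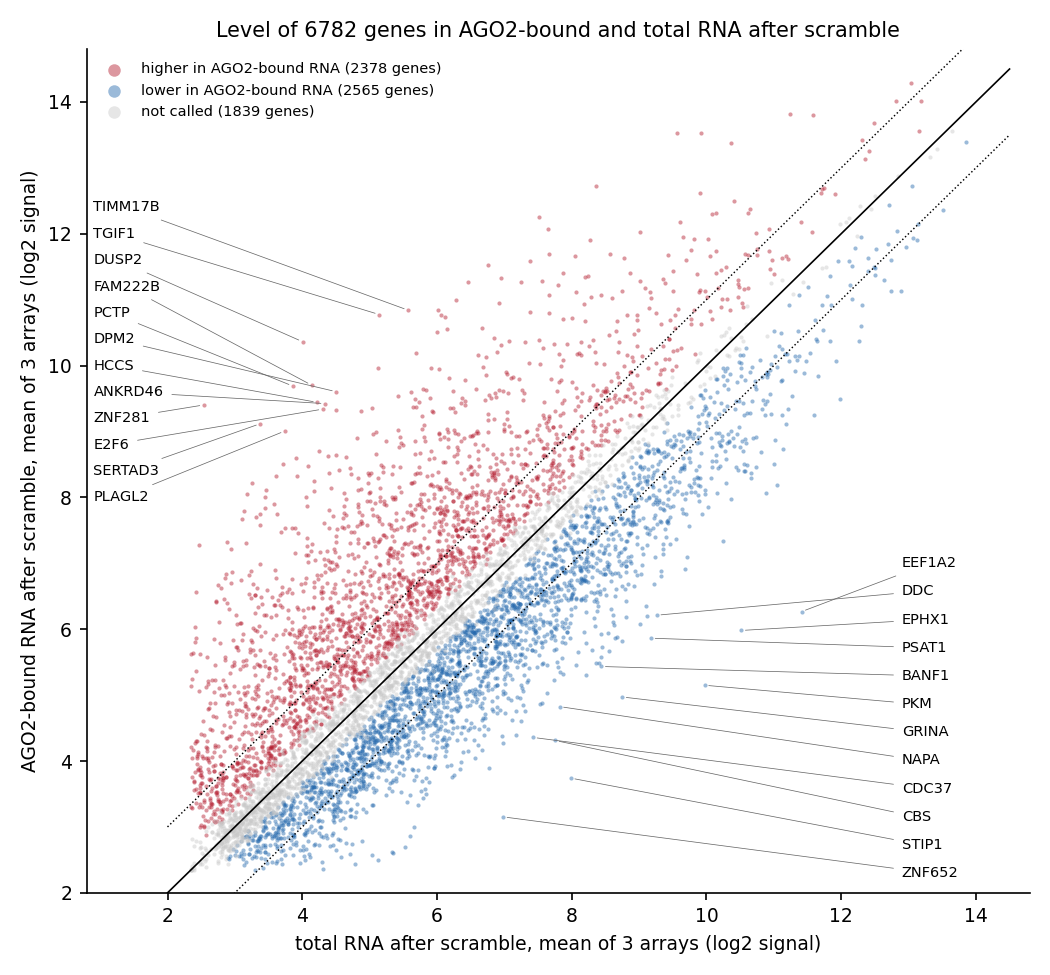
Mean log2 signal of each gene in total RNA (x axis) and AGO2-bound RNA (y axis) after scramble, with 1 point per gene, the line of equal signal and dotted lines at 2-fold. Red points are the 2378 genes called higher and blue points the 2565 called lower in AGO2-bound RNA, and the 12 largest rises and falls are named. The cloud extends further above the line than below it.

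The 12 genes with the largest rise had low to moderate signals in total RNA and strong ones in AGO2-bound RNA. ZNF281, a zinc finger transcription factor, had log2 signals of 9.14, 9.66 and 9.41 in AGO2-bound RNA, against 2.50, 2.35 and 2.77 in total RNA. DUSP2, a nuclear phosphatase that inactivates MAP kinases, had 10.08, 10.53 and 10.48 in AGO2-bound RNA, against 4.29, 3.78 and 3.95 in total RNA. PCTP, which transfers phosphatidylcholine between membranes, had 9.59, 9.74 and 9.74 in AGO2-bound RNA, against 3.95, 3.67 and 3.96 in total RNA. For all of these the lowest AGO2-bound array lay more than 5 log2 units above the highest total array. The differences were 6.86 ± 0.21 for ZNF281 (adjusted p = 1.44e-18), 6.36 ± 0.23 for DUSP2 and 5.83 ± 0.14 for PCTP. SERTAD3, a transcriptional cofactor, had 9.04, 9.21 and 9.10 in AGO2-bound RNA, against 3.60, 3.39 and 3.14 in total RNA, and differed by 5.74 ± 0.15. TGIF1, a homeobox repressor that restrains TGF-β signalling, had 10.82, 10.89 and 10.62 in AGO2-bound RNA, against 5.24, 5.19 and 4.99 in total RNA, and differed by 5.63 ± 0.13. E2F6, the E2F family member that represses transcription, had 9.32, 9.47 and 9.23 in AGO2-bound RNA, against 4.43, 4.14 and 4.35 in total RNA, and differed by 5.03 ± 0.15. In none of these genes did an AGO2-bound array come near a total array. FAM222B, TIMM17B, PLAGL2, HCCS, DPM2 and ANKRD46 completed the 12 with differences of 5.56, 5.27, 5.27, 5.22, 5.10 and 5.08. A second probe set of HCCS, the enzyme that attaches haem to cytochrome c, gave a difference of 0.60.

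The largest falls were of transcripts strong in total RNA. EEF1A2, a translation elongation factor, had 6.34, 6.15 and 6.31 in AGO2-bound RNA, against 11.28, 11.49 and 11.46 in total RNA, a difference of -5.15 ± 0.16 (adjusted p = 1.44e-18). PKM, the pyruvate kinase of glycolysis, had 5.16, 5.12 and 5.17 in AGO2-bound RNA, against 9.83, 10.16 and 9.94 in total RNA, and differed by -4.82 ± 0.19. EPHX1, an epoxide hydrolase of xenobiotic metabolism, had 5.93, 5.75 and 6.26 in AGO2-bound RNA, against 10.38, 10.56 and 10.62 in total RNA, and differed by -4.54 ± 0.18. Every total array of these 3 genes lay more than 4 log2 units above every AGO2-bound array. STIP1, which links the chaperones HSP70 and HSP90, had 3.83, 3.55 and 3.84 in AGO2-bound RNA, against 7.83, 8.22 and 7.91 in total RNA, and differed by -4.25 ± 0.18, and its second probe set differed by -4.17. ZNF652, a zinc finger protein, had 3.03, 3.03 and 3.40 in AGO2-bound RNA, against 6.82, 7.02 and 7.10 in total RNA, and differed by -3.83 ± 0.15. The rest of the 12 were GRINA, CBS, PSAT1, CDC37, DDC, BANF1 and NAPA, with differences between -3.78 and -2.99. CBS and PSAT1 are enzymes of sulphur amino acid and serine synthesis, CDC37 brings kinases to HSP90, and NAPA is the SNAP protein that helps to recycle membrane fusion complexes.

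In 9 called genes the total arrays all lay at the floor, so only a lower bound can be given. TNFSF9, a ligand of the tumour necrosis factor family, had 5.74, 5.80 and 5.34 in AGO2-bound RNA, against 2.35, 2.35 and 2.35 in total RNA, at least 9.7-fold higher in AGO2-bound RNA. SOCS1, an inhibitor of cytokine signalling, was at least 7.41-fold higher, with 5.13, 5.33 and 5.28 in AGO2-bound RNA, against 2.36, 2.35 and 2.36 in total RNA. ATF6B, a transcription factor of the unfolded protein response, was at least 6.92-fold higher, SLC2A3, a glucose transporter, at least 3.65-fold and FMO4, a flavin monooxygenase, at least 3.46-fold. Each of these had a measured level in AGO2-bound RNA alone. In 3 called genes the AGO2-bound arrays all lay at the floor: TMEM259 was at least 3.86-fold lower in AGO2-bound RNA, LOC100505915 at least 2.05-fold and LRRC37A3 at least 1.92-fold.

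Among the known microRNA targets, more genes were higher than lower in AGO2-bound RNA. The 5 target lists name 103 different genes, of which 68 passed the filter, and 7 genes stand in more than 1 list. Of the 68, 43 were higher and 11 lower, where 35.1% and 37.8% of all genes were, and 26 were higher and 2 lower beyond 2-fold, where 14.6% and 9.53% of all genes were. Their median difference was 0.81, against -0.05 over all genes. The filter took the mean over 24 arrays of both kinds of RNA, so a dim gene could pass through a high AGO2-bound level. With the members below the filter included, the list medians were smaller and stayed above 0.

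Among list members that passed the filter, targets of let-7 had the highest median. Of 28 listed genes, 22 are on the array and 16 passed the filter, and 12 of these were higher and 2 lower, with a median of 2.55. Across all genes 35.1% were higher and 37.8% lower. The median was 0.94 with the members below the filter, HMGA2, IGF2BP2 and CCND2 among them. With such members included, the immediate early and AU-rich list had a higher median, at 1.35. PLAGL2, a zinc finger transcription factor, had 8.89, 9.27 and 8.86 in AGO2-bound RNA, against 3.84, 3.71 and 3.68 in total RNA, a difference of 5.27 ± 0.16, and its second probe set gave 3.84. CDC34, a ubiquitin-conjugating enzyme of the cell cycle, had 9.32, 9.34 and 9.21 in AGO2-bound RNA, against 5.84, 5.90 and 6.10 in total RNA, and differed by 3.35 ± 0.14. ARID3B, a DNA-binding protein, had 6.65, 7.03 and 6.34 in AGO2-bound RNA, against 2.68, 2.78 and 2.78 in total RNA, and differed by 3.93 ± 0.25. On all 3 AGO2-bound arrays these genes lay over 3 log2 units above every total array. CCND1, the cyclin D1 that starts the cell cycle, had 9.71, 9.89 and 9.79 in AGO2-bound RNA, against 7.35, 7.09 and 7.22 in total RNA, and differed by 2.57 ± 0.14. ACVR1B, an activin receptor, differed by 3.12 ± 0.12, and its other probe sets by 3.40 and 1.28. Growth factor receptors were raised too: IGF1R had 6.73, 7.39 and 7.42 in AGO2-bound RNA, against 4.53, 3.73 and 4.14 in total RNA, and INSR, the insulin receptor, differed by 2.52 ± 0.18. THBS1, a secreted matrix protein, differed by 3.26 ± 0.34 and CDC25A, a phosphatase of the G1 to S transition, by 2.57 ± 0.21. DICER1, which cuts microRNAs from their precursors and is itself a let-7 target, differed by 1.24 ± 0.21, IGF2BP3 by 1.16 ± 0.18 and RRM2 by 0.72 ± 0.29. Against this direction, HRAS was lower, at -1.79 ± 0.14 and NAP1L1 at -0.32 ± 0.14. HMGA1 and BCL2L1 were not called, at 0.18 ± 0.15 and 0.15 ± 0.14. When 1 scramble array was left out, 11 or 12 of the 16 were higher, and 1 was lower in every case but that of AGO2-bound replicate 1, where 2 were.

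Targets of the miR-17 to miR-92 and miR-106 clusters were split. Of 24 listed genes 18 passed the filter, of which 9 were higher, 3 lower and 6 not called, with a median of 0.29. Across all genes 35.1% were higher and 37.8% lower. TXNIP, an inhibitor of thioredoxin, had 11.89, 11.99 and 12.35 in AGO2-bound RNA, against 7.68, 7.60 and 7.67 in total RNA, and differed by 4.42 ± 0.17. E2F3, a transcription factor of S phase entry, had 8.34, 8.30 and 8.49 in AGO2-bound RNA, against 4.49, 4.34 and 4.36 in total RNA, and differed by 3.98 ± 0.15. WEE1, a kinase that holds cells before mitosis, had 10.38, 10.32 and 9.92 in AGO2-bound RNA, against 6.96, 6.96 and 6.76 in total RNA, and differed by 3.31 ± 0.19. The AGO2-bound arrays of these 3 genes all lay far above the total arrays. MICA, a stress ligand seen by natural killer cells, differed by 2.68 ± 0.17, and the retinoblastoma family members RBL1 and RB1 by 2.98 ± 0.24 and 2.38 ± 0.19. CDKN1A, the inhibitor p21, differed by 1.86 ± 0.16. SMAD4, E2F1 and MAPK9 were lower, at -1.27 ± 0.16, -0.52 ± 0.11 and -0.46 ± 0.14. The genes HIF1A, VEGFA, APP, STAT3, RBL2 and MAP3K12 were not called, with differences between -0.34 and 0.18.

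Of 12 targets of miR-200 and miR-141 that passed the filter, 8 were higher and 2 lower, with a median of 1.16 (0.36 with those below the filter, ZEB1 and ZEB2 among them). Across all genes 35.1% were higher and 37.8% lower. QKI, an RNA-binding protein of splicing, had 9.99, 9.95 and 10.00 in AGO2-bound RNA, against 7.02, 6.56 and 6.47 in total RNA, and differed by 3.30 ± 0.18. FN1, the matrix protein fibronectin, had 10.66, 11.00 and 11.16 in AGO2-bound RNA, against 8.18, 8.20 and 8.17 in total RNA, and differed by 2.76 ± 0.24, and its 3 other probe sets by 2.63 to 2.72. The 3 AGO2-bound arrays stood above the 3 total arrays in both. KLHL20, a ubiquitin ligase adaptor, differed by 1.79 ± 0.13, while its other probe sets gave 3.29 and -0.96. SEC23A, of vesicle transport, and WASF3, of actin assembly, differed by 1.59 ± 0.20 and 1.36 ± 0.14. JAG2 and KEAP1 were lower, at -1.18 ± 0.13 and -0.43 ± 0.14, and JAG1 and MSN were not called, at -0.23 ± 0.26 and 0.28 ± 0.18. Without AGO2-bound replicate 3, 1 of the 12 was lower.

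Of 14 targets of miR-26, miR-101 or miR-148, 8 were higher and 1 lower, with a median of 0.62 (0.40 with those below the filter). For this list and the miR-21 list, the shares over all genes were 35.1% higher and 37.8% lower. CCNE1, the cyclin E of S phase entry, had 8.94, 8.77 and 8.39 in AGO2-bound RNA, against 4.65, 4.21 and 3.87 in total RNA, and differed by 4.46 ± 0.18. DNMT3B, which methylates DNA de novo, had 6.41, 6.60 and 6.59 in AGO2-bound RNA, against 3.25, 3.18 and 3.23 in total RNA, and differed by 3.32 ± 0.18. Neither gene overlapped between the groups. CDKN1B, the inhibitor p27, differed by 2.29 ± 0.21 and MCL1, an anti-apoptotic protein, by 2.00 ± 0.13, while other probe sets of MCL1 gave 2.13, 1.68, 0.50 (not called) and, for a dim one, -1.04. EZH2, the methyltransferase of Polycomb repression, had 7.20, 6.59 and 5.84 in AGO2-bound RNA, against 5.69, 5.50 and 5.68 in total RNA, and a smaller difference of 0.92 ± 0.28. DNMT1, the maintenance DNA methyltransferase, was lower, at -1.44 ± 0.17. The 10 miR-21 targets that passed the filter gave 7 higher and 3 lower, with a median of 0.67 (0.05 with those below the filter). Of the miR-21 targets, RECK, an inhibitor of metalloproteinases, differed by 2.62 ± 0.21 with a second probe set at -0.33, RHOB, a small GTPase, by 1.35 ± 0.14 and MARCKS, a protein kinase C substrate, by 0.67 ± 0.15. FBXO11, TPM1 and NFIB were lower, at -0.62 ± 0.22, -0.41 ± 0.12 and -0.32 ± 0.13, and 1 of the 10 was lower without AGO2-bound replicate 1 or without total replicate 1.

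**Figure D3:**
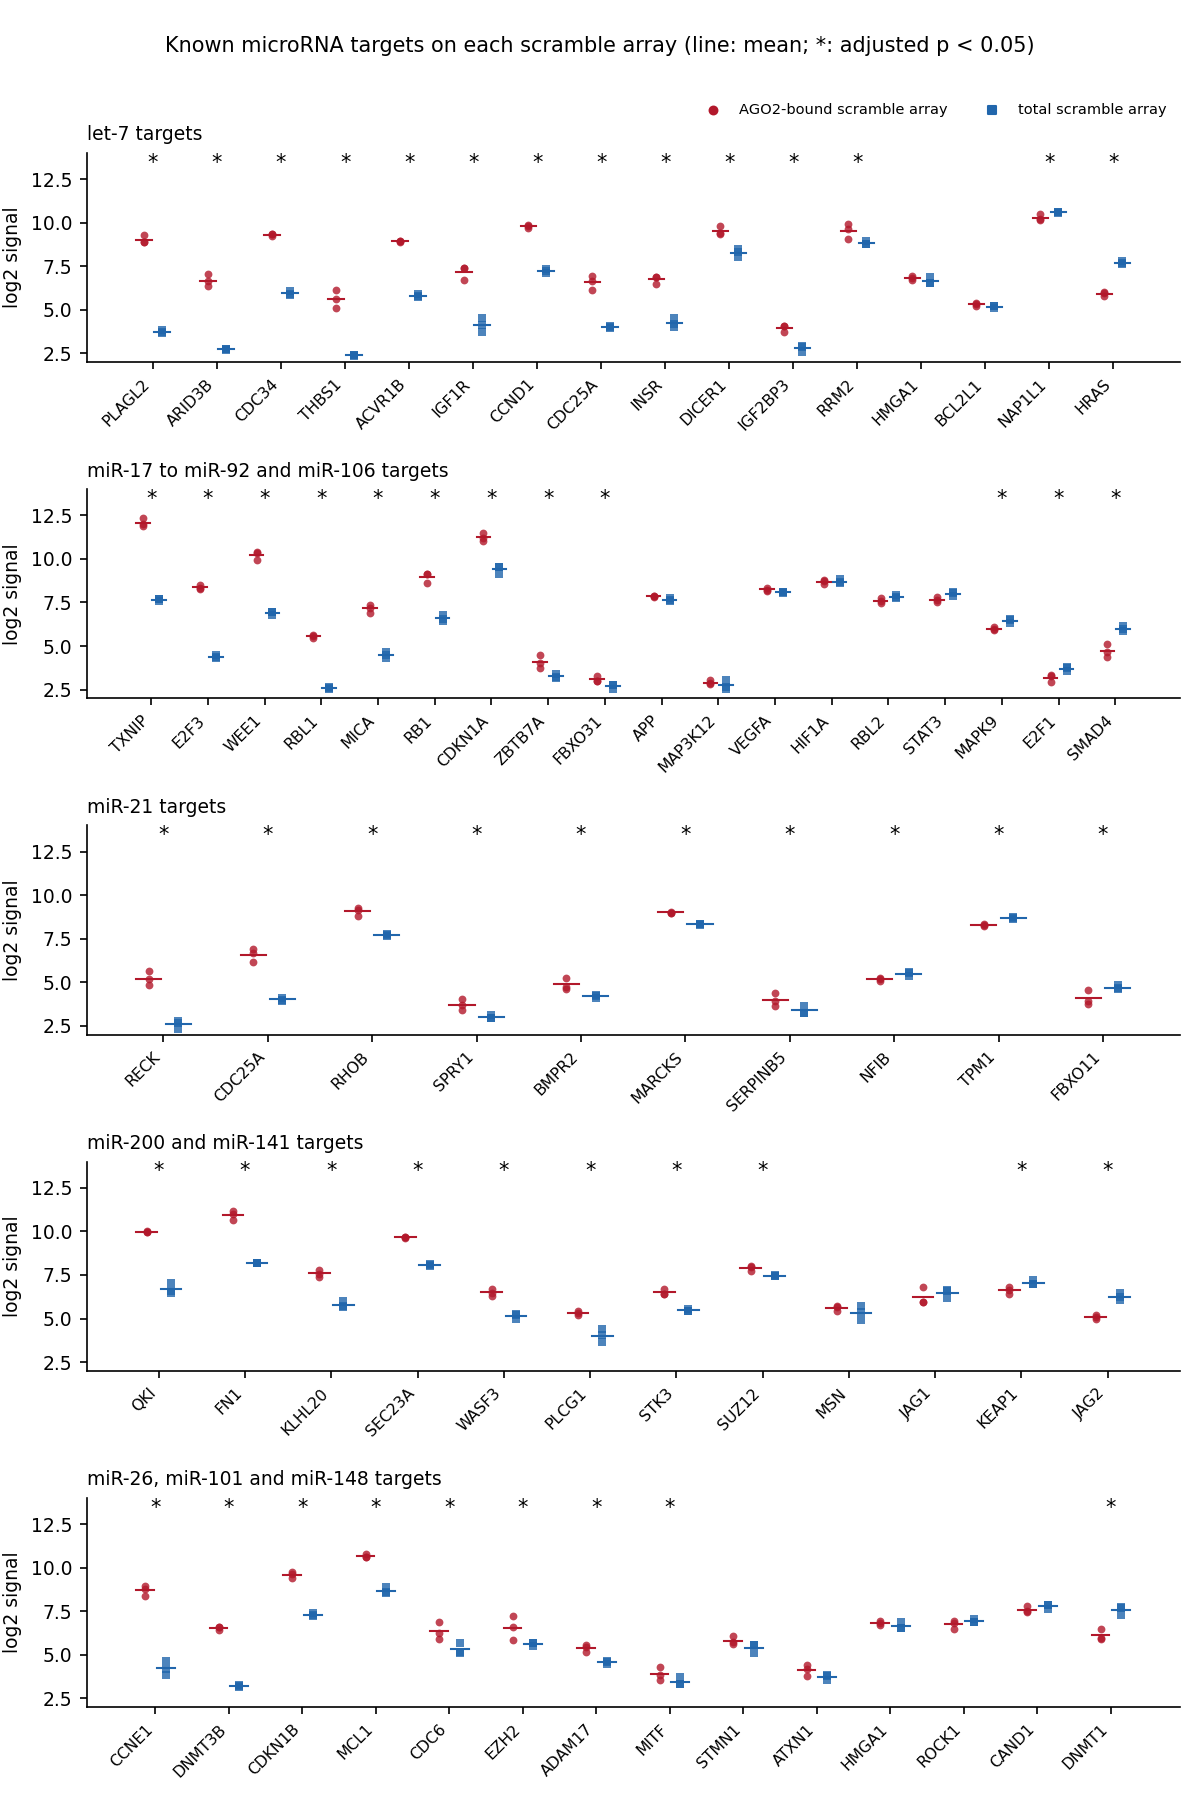
Log2 signal of the known microRNA targets that passed the filter on each of the 3 AGO2-bound (circles, left) and 3 total RNA arrays (squares, right) after scramble, with 1 panel per target list, group means as lines and genes ordered by difference. Asterisks mark an adjusted p under 0.05. In the let-7 panel the circles lie above the squares from PLAGL2 to RRM2, and below them at HRAS and NAP1L1.

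Transcripts of immediate early genes and other messages with AU-rich elements, which are known for a short life, were the other group with a high median. Of 33 listed genes 22 passed the filter, 17 were higher and 1 lower, 13 were higher beyond 2-fold, and the median was 2.01 (1.35 with those below the filter). Across all genes 35.1% were higher and 37.8% lower, and 14.6% were higher beyond 2-fold. ZFP36, which binds AU-rich elements and destabilizes messages, had 8.33, 8.73 and 8.36 in AGO2-bound RNA, against 4.03, 4.11 and 4.13 in total RNA, and differed by 4.38 ± 0.20. KLF6, a Krüppel-like transcription factor, had 7.34, 8.02 and 7.73 in AGO2-bound RNA, against 3.08, 3.36 and 3.52 in total RNA, and differed by 4.38 ± 0.18. DUSP1, a phosphatase of MAP kinases, differed by 4.02 ± 0.22. The groups of all of these were separate. ZFP36L1, a relative of ZFP36, differed by 3.85 ± 0.21, and the AP-1 members JUN and JUNB by 3.04 ± 0.20 and 2.01 ± 0.24. IER2 and EGR1 each differed by 2.64. JUND, also of AP-1, was lower, at -0.55 ± 0.12, and BTG1, ATF3, VEGFA and GADD45B were not called, with differences of 0.04 to 0.41.

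Genes of the microRNA pathway itself went both ways, with 10 of 25 higher and 6 lower and a median of 0.16 (0.02 with centred arrays). Of all genes 35.1% were higher and 37.8% lower, and nothing about the list is read from these counts. FXR1, an RNA-binding relative of the fragile X protein, had 8.79, 8.82 and 8.94 in AGO2-bound RNA, against 5.94, 5.55 and 5.56 in total RNA, and differed by 3.17 ± 0.17, while its other probe sets gave 0.52 and -0.67. TARBP2, a Dicer partner, had 7.54, 7.09 and 6.84 in AGO2-bound RNA, against 5.12, 5.40 and 5.26 in total RNA, and differed by 1.90 ± 0.20. PRKRA, the other Dicer partner, had 4.99, 4.33 and 4.54 in AGO2-bound RNA, against 6.46, 6.87 and 6.67 in total RNA, and differed by -2.05 ± 0.18. The 2 Dicer partners lay on opposite sides. CNOT3, of the deadenylase complex, had 2.60, 2.76 and 2.43 in AGO2-bound RNA, against 5.06, 5.49 and 5.49 in total RNA, and differed by -2.75 ± 0.16, and CNOT1 and CNOT2 of the same complex were lower as well, at -0.66 ± 0.12 and -0.37 ± 0.12. CNOT4 and CNOT7 of that complex were higher by 1.97 ± 0.22 and 0.53 ± 0.14, and CNOT8 was not called at 0.23 ± 0.16. LSM1, of message decapping, was lower, at -1.50 ± 0.12 and SND1 at -1.52 ± 0.17. AGO1, DCP1A and EIF4ENIF1 were higher by 0.96 ± 0.15, 1.59 ± 0.22 and 1.62 ± 0.16.

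Housekeeping groups lay mostly below total RNA. Of all genes, 37.8% were lower and 35.1% higher, with a median of -0.05, and the counts of the housekeeping lists stand beside these shares. In the fifth of genes brightest in total RNA after miR-205, 57.6% were lower and 23.9% higher, with a median of -0.56. The lists were not set against genes of like signal, so the part of signal level in their counts was not tested. Of 60 oxidative phosphorylation genes 48 were lower and 6 higher, with a median of -1.18. NDUFAB1, the acyl carrier protein of complex I, had 8.71, 8.72 and 9.18 in AGO2-bound RNA, against 11.10, 10.97 and 10.96 in total RNA, and differed by -2.14 ± 0.14. COX7A2, of cytochrome oxidase, had 8.22, 8.14 and 8.74 in AGO2-bound RNA, against 10.62, 10.61 and 10.76 in total RNA, and differed by -2.30 ± 0.16. ATP5MC2, of the ATP synthase ring, went the other way with 12.50, 12.27 and 12.20 in AGO2-bound RNA, against 10.12, 10.17 and 10.14 in total RNA, a difference of 2.18 ± 0.12. Of 29 proteasome genes 25 were lower and 2 higher (median -1.10), and 1 was higher without AGO2-bound replicate 2 or without total replicate 1 or 2. PSMC3, an ATPase of the regulatory particle, was lower, at -2.69 ± 0.16, and PSMD5, which helps to assemble it, was higher by 1.71 ± 0.18. Of 18 glycolysis genes 12 were lower and 2 higher (median -0.99), with GPI, LDHB and ENO1 lower, at -2.77 ± 0.17, -2.49 ± 0.17 and -2.12 ± 0.18 beside PKM. HK2 and PGAM1 were the glycolysis genes that were higher, by 1.04 ± 0.14 and 0.93 ± 0.11.

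Of 26 heat shock chaperones and cochaperones, 22 were lower and PFDN2 alone was higher (median -0.84). FKBP4 and HSPB1 were lower, at -2.59 ± 0.18 and -1.86 ± 0.13. PFDN2, a prefoldin subunit, had 11.43, 11.79 and 11.89 in AGO2-bound RNA, against 7.82, 7.67 and 7.51 in total RNA, and differed by 4.04 ± 0.16. Of 48 mitochondrial ribosomal protein genes 31 were lower and 9 higher (median -0.94), with MRPS33 lower, at -1.83 ± 0.11 and MRPL20 higher by 1.90 ± 0.12. Of 48 spliceosome and hnRNP genes 29 were lower and 5 higher (median -0.72). SNRPD2, of the Sm core, was lower, at -2.17 ± 0.14, SRSF5 at -1.96 ± 0.13, and HNRNPL was higher by 1.57 ± 0.13. Of 25 cholesterol and fatty acid synthesis genes 19 were lower, with FASN, the fatty acid synthase, at -2.41 ± 0.18, and 3 were higher, while 12 were lower without AGO2-bound scramble replicate 3. Those 3 are enzymes of sterol synthesis and moved far: SQLE had 9.12, 9.65 and 9.30 in AGO2-bound RNA, against 6.22, 6.58 and 5.89 in total RNA, and differed by 3.13 ± 0.15, and HMGCS1 and MSMO1 differed by 2.92 ± 0.20 and 2.63 ± 0.14. Of 30 endoplasmic reticulum chaperone and translocation genes 18 were lower and 5 higher (median -0.47), among them RPN2, a subunit of the oligosaccharyltransferase, higher by 2.71 ± 0.11.

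Translation genes of the cytosol were mostly lower too. Of 30 translation factor genes 22 were lower and 4 higher (median -0.98), against 37.8% and 35.1% of all genes. In the fifth of genes brightest in total RNA after miR-205 the shares were 57.6% and 23.9%. Signal level was not matched here either. EIF3G, of the initiation factor that recruits messages, had 6.09, 6.01 and 6.12 in AGO2-bound RNA, against 9.04, 9.05 and 8.93 in total RNA, and differed by -2.93 ± 0.17. EIF4B and EEF1D were lower, at -2.17 ± 0.13 and -2.27 ± 0.15, while EEF1A1 was not called at -0.08 ± 0.09, with other probe sets called lower at -0.56 and -0.44 and 1 not called at -0.05. Of 52 cytosolic ribosomal protein genes 34 were lower, 10 higher and 8 not called (median -0.82). RPS9 had 8.92, 8.56 and 8.73 in AGO2-bound RNA, against 11.13, 11.19 and 11.11 in total RNA, and differed by -2.41 ± 0.12. RPL11 had 13.77, 13.92 and 13.77 in AGO2-bound RNA, against 11.29, 11.18 and 11.24 in total RNA, and differed by 2.58 ± 0.15. RPL35 had 13.70, 13.93 and 13.76 in AGO2-bound RNA, against 11.68, 11.63 and 11.45 in total RNA, and differed by 2.21 ± 0.14. These 3 ribosomal protein genes lay on both sides, with no overlap between groups. Ribosomal protein genes have many processed pseudogenes, so a probe set may also read near-identical copies. The levels of RPS24 and RPLP1 were higher by 0.40 ± 0.10 and 0.82 ± 0.10, while quantile scaling of the arrays turned RPS24 to -0.079.

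Other groups had members on both sides, as did all genes with 35.1% higher and 37.8% lower. Of 76 genes on the list of zinc finger proteins, many of which carry a KRAB repressor domain, 35 were higher and 21 lower (median 0.17, 0.04 with centred arrays). Differences on this list ran from -3.83 for ZNF652 to 4.69 for ZNF200, and the members named next were all higher. ZNF200 had 8.58, 8.68 and 8.51 in AGO2-bound RNA, against 3.91, 3.70 and 4.10 in total RNA, and differed by 4.69 ± 0.14, and ZNF274, ZNF350 and ZNF764 were higher by 1.52 ± 0.12, 1.54 ± 0.23 and 1.76 ± 0.20. Of 48 cell cycle genes 13 were higher and 20 lower (median -0.45), and the list median ran from -0.63 without AGO2-bound replicate 1 to -0.12 without AGO2-bound replicate 3. CCNA2, the cyclin A of S phase and mitosis, averaged 9.50 ± 0.88 in AGO2-bound and 5.68 ± 0.29 in total RNA (SD, n = 3 each), and differed by 3.82 ± 0.35. KIF20A, a kinesin of cell division, had 8.71, 8.57 and 8.08 in AGO2-bound RNA, against 5.46, 5.61 and 5.26 in total RNA, and differed by 3.01 ± 0.25. The replication helicase genes MCM7 and MCM2 were lower, at -2.52 ± 0.28 and -2.20 ± 0.26, and PLK1, a mitotic kinase, at -2.03 ± 0.20. Of 29 cytoskeleton genes 10 were higher and 15 lower: CAPZA1, an actin capping protein, had 11.17, 11.46 and 11.21 in AGO2-bound RNA, against 8.99, 9.02 and 9.04 in total RNA, and differed by 2.26 ± 0.11, ACTB was higher by 1.20 ± 0.11, and the thymosins TMSB4X and TMSB10 were lower, at -1.97 ± 0.23 and -1.66 ± 0.15. The noncoding RNAs TUG1 and DLEU1, the only members of their list to pass the filter, were both lower, at -1.20 ± 0.12 and -1.14 ± 0.14. Of 14 histone genes 3 were higher and 6 lower, with H2BC21 higher by 1.94 ± 0.13 and H2AC6 lower, at -1.04 ± 0.11.

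Prostate and hormone genes had members on both sides too, where 35.1% of all genes were higher and 37.8% lower. Luminal markers lay mostly below total RNA: of 12, 9 were lower and 3 higher (median -1.08). The 3 that were higher were FOXA1, ACP3 and KLK3. FOXA1, a pioneer factor of the luminal programme, had 10.37, 10.31 and 10.19 in AGO2-bound RNA, against 8.14, 8.30 and 8.32 in total RNA, and differed by 2.04 ± 0.11. KRT18, a luminal keratin, had 8.49, 8.34 and 8.57 in AGO2-bound RNA, against 10.54, 10.35 and 10.41 in total RNA, and differed by -1.96 ± 0.13. ACP3, prostatic acid phosphatase, and KLK3 were higher by 1.35 ± 0.10 and 0.96 ± 0.14, while KLK2, the neighbouring kallikrein, and TMPRSS2 were lower, at -0.86 ± 0.23 and -1.33 ± 0.13. Of 26 androgen-responsive genes 13 were higher and 9 lower (median 0.30, 0.16 with centred arrays). Their differences ran from -1.33 to 3.91, and the members named next were all higher. SGK1, a kinase of ion transport, had 6.89, 6.79 and 6.92 in AGO2-bound RNA, against 2.94, 2.74 and 3.18 in total RNA, and differed by 3.91 ± 0.23, and PTGER4, a prostaglandin receptor, and PMEPA1, an androgen-induced membrane protein, were higher by 3.24 ± 0.23 and 2.29 ± 0.19. Of 31 interferon response genes 5 were higher and 10 lower (median -0.05), with ISG15, a ubiquitin-like modifier, lower, at -2.49 ± 0.18 and CXCL10, a chemokine, higher by 1.87 ± 0.19.

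**Figure D4:**
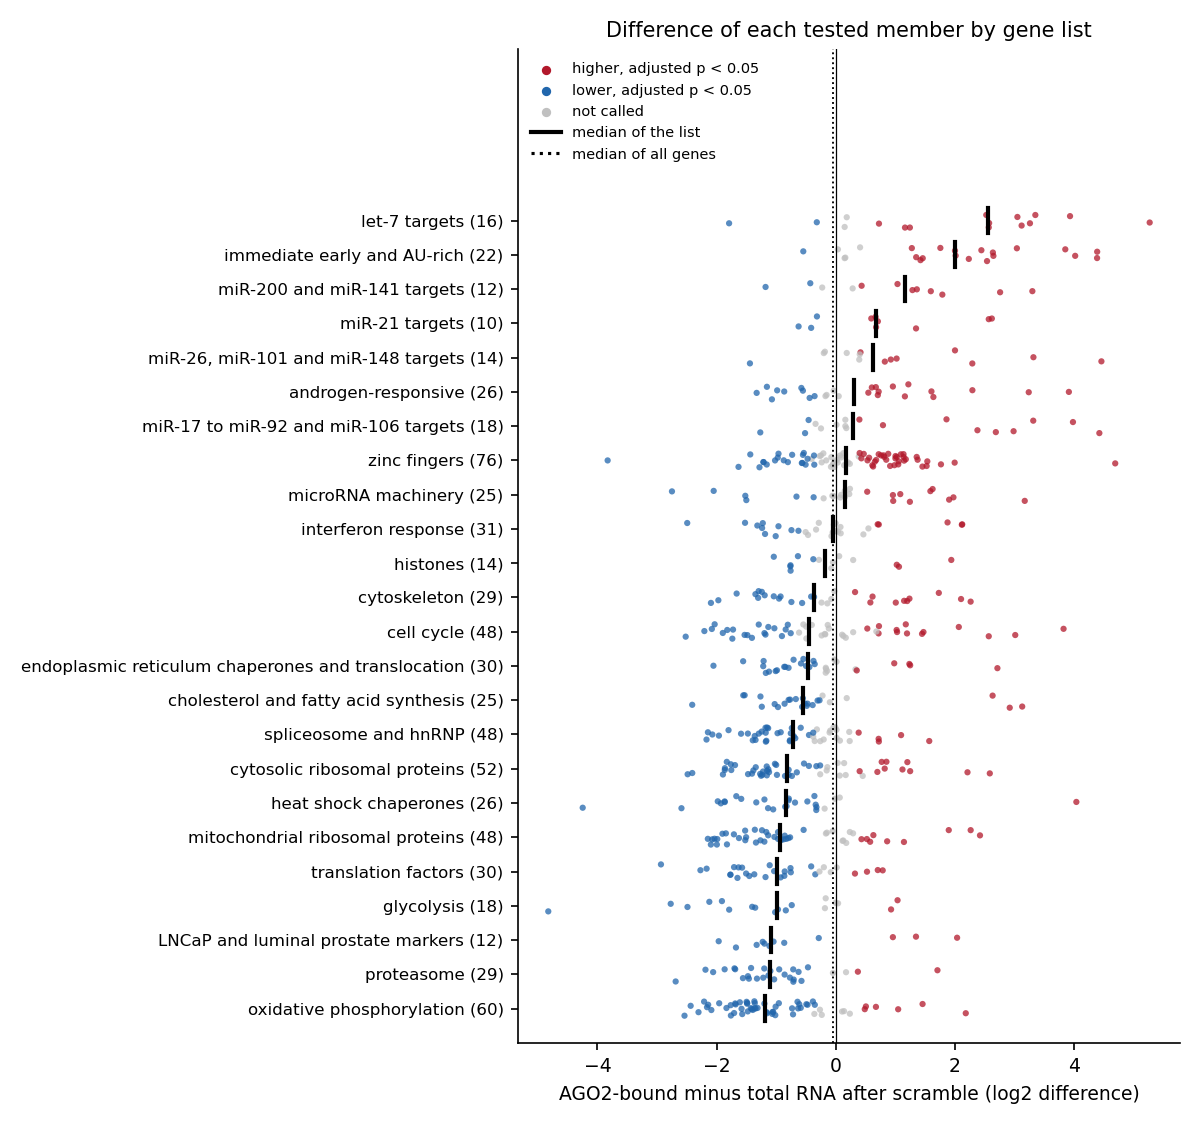
Difference between AGO2-bound and total RNA after scramble (log2) for each tested member of the 24 gene lists with at least 5 of them, with 1 row per list, the number of tested members in brackets, list medians as black bars and the median of all genes as a dotted line. Medians of members that passed the filter run from 2.55 for let-7 targets to -1.18 for oxidative phosphorylation, and most lists hold members on both sides of 0.

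Across all genes, the difference fell as the signal in total RNA rose. Genes were put in 5 equal groups by their mean in total RNA after miR-205, arrays that do not enter the difference. The median difference was 0.16, 0.11, -0.06, -0.24 and -0.56 from the dimmest to the brightest group, with a Spearman rho of -0.28 across 6782 genes, which are not independent replicates and share probes and base composition. In the brightest group 57.6% of genes were lower and 23.9% higher. In the dimmest group, whose levels began at the floor, 15.3% were lower and 42.4% higher. The filter took the mean over both kinds of RNA, so genes this dim could pass through a high AGO2-bound level. Near the floor they also had little room to be lower, and the part of filter and floor in the trend was not tested. Probe signals are not comparable between genes as amounts, so this orders probe sets and not transcripts. Genes beyond 2-fold higher spanned a median of 33.5 kb of genome, those beyond 2-fold lower 18.4 kb and all genes 30.9 kb (RefSeq, GRCh38.p14), with a Spearman rho of 0.11 between span and difference.

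Some transcripts bright in total RNA were brighter still with AGO2. S100A11, a calcium-binding protein, had 13.71, 13.73 and 13.16 in AGO2-bound RNA, against 9.47, 9.68 and 9.53 in total RNA, and differed by 3.97 ± 0.15. MKNK2, a kinase that phosphorylates the cap-binding factor EIF4E, had 13.44, 13.64 and 13.49 in AGO2-bound RNA, against 10.08, 9.82 and 9.86 in total RNA, and differed by 3.60 ± 0.12. RPS28, whose probe set had the highest signal on the AGO2-bound arrays, differed by 1.25 ± 0.09, and saturation of that probe set was not tested. Each AGO2-bound array lay above each total array in these genes.

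Where a called gene had further probe sets, they mostly gave the same direction. Of 2238 further probe sets of called genes 1744 were called themselves, 86.2% of these in the same direction. For genes beyond 2-fold the share was 94.6% of 627.

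The same contrast in the other transfections shares no array with scramble. Of the 2378 genes higher after scramble, 1722 (72.4%) were higher after miR-130a, 1567 (65.9%) with miR-203 and 1715 (72.1%) with miR-205, where 33.3%, 34.7% and 36.6% of all genes were. Of the 2565 lower genes, 1956 (76.3%), 1748 (68.1%) and 1804 (70.3%) were lower there, where 38.3%, 37.2% and 36.1% of all genes were. The called direction was opposite for 148, 214 and 157 of the higher genes and for 164, 314 and 298 of the lower ones. Across genes the differences correlated with Pearson's r of 0.79, 0.68 and 0.72. In all 4 transfections 1159 genes (17.1%) were higher and 1100 (16.2%) lower.

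Among the genes higher in all 4, SERTAD3, PCTP, ZNF281, FAM222B, MEAK7, E2F6, MEX3D and STX3 had the largest smallest difference. SERTAD3 had AGO2-bound levels of 9.04, 9.21 and 9.10 in scramble cells, 8.95, 8.74 and 8.86 with miR-130a, 8.75, 8.71 and 8.84 with miR-203 and 8.64, 8.57 and 8.85 with miR-205. Its levels on the 12 total RNA arrays lay between 2.97 and 4.04. PCTP differed by 4.75, 4.81 and 5.34 after the 3 microRNAs, beside 5.83 after scramble. STX3, a syntaxin of membrane fusion, differed by 4.37 after scramble, with a second probe set at 0.84. Among the genes lower in all 4, the same rule named ZNF652, STIP1, PKM, PDAP1, FOLR1, YWHAE, NAPA and BSG. YWHAE, a 14-3-3 protein, had 8.13, 8.13 and 7.92 in AGO2-bound RNA, against 10.76, 11.13 and 10.75 in total RNA after scramble and differed by -2.82 ± 0.15. ZNF652 differed by -3.91, -4.16 and -4.53 after the 3 microRNAs.

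Lists with large medians lay on the same side in these other arrays. Of the 16 let-7 targets 10, 12 and 12 were higher after miR-130a, miR-203 and miR-205, with medians of 1.57, 1.74 and 2.53, and 10 were higher in all 4 transfections, as were 17.1% of all genes. Of the 22 immediate early and AU-rich genes 16 were higher in all 4, against 17.1% of all genes. Of the 60 oxidative phosphorylation genes 43, 46 and 41 were lower after these microRNAs and 26 in all 4, as were 16.2% of all genes. Smaller medians varied more: for miR-26, miR-101 and miR-148 targets they were 0.45, -0.02 and 0.31. Of the 76 zinc finger genes 56 were higher after miR-205, with a median of 1.18, and the medians after miR-130a and miR-203 were -0.05 and -0.25.

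The AGO2-bound minus total difference after scramble was tested against its mean over the other 3 transfections. AGO2-bound arrays of one number deviated together across transfections, with correlations of 0.50, 0.11 and 0.52 between scramble and miR-130a and 0.58, 0.16 and 0.44 between scramble and miR-203, though not at number 2 between scramble and miR-205, at 0.52, -0.04 and 0.32. It was larger after scramble at 1396 genes (20.6%) and smaller at 1443 (21.3%). Scramble and miR-205 arrays share a floor and are taken as 1 normalization run, though no label names a run. Against miR-205 alone the difference was larger after scramble at 1470 genes (21.7%) and smaller at 1430 (21.1%). Each difference is taken within a transfection, so an offset that is equal on both kinds of arrays of a run drops out.

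Of the 8 genes with the largest excess after scramble, all but IFI6 were higher on each scramble AGO2-bound array than on each other AGO2-bound array. STAM, an adaptor of receptor sorting, had AGO2-bound levels of 10.76, 11.12 and 10.67 after scramble, 5.24, 4.91 and 5.12 with miR-130a, 7.26, 7.41 and 7.23 with miR-203 and 6.37, 6.25 and 6.44 with miR-205, while total RNA after scramble had 6.14, 5.72 and 6.17. CCNG1, cyclin G1, a p53 target, had 13.30, 13.51 and 13.34 in AGO2-bound RNA after scramble and between 8.78 and 9.40 on the other 9 AGO2-bound arrays, with 10.34, 10.37 and 10.37 in total RNA after scramble. The excess over the other 3 transfections was 4.85 ± 0.16 for STAM (adjusted p = 9.27e-17) and 4.75 ± 0.15 for CCNG1. In CCNG1 AGO2-bound RNA lay above total RNA after scramble and below it after each of the 3 microRNAs. PFDN2 had an excess of 4.31 ± 0.19, with 11.43 to 11.89 in AGO2-bound RNA after scramble and 6.88 to 8.28 on the other AGO2-bound arrays. COPS3, of the COP9 signalosome, had 12.27, 12.48 and 11.99 after scramble and 8.36, 7.93 and 7.84 with miR-205 in AGO2-bound RNA, an excess of 3.87 ± 0.17. TMEM126B, an assembly factor of complex I, TRIP4, a transcriptional coactivator, and SNX7, a sorting nexin, had an excess of 4.03 ± 0.18, 4.18 ± 0.20 and 4.17 ± 0.22. IFI6, an interferon-induced gene, had an excess of 4.41 ± 0.46, but there total RNA differed too: it was 5.99, 6.19 and 6.22 after scramble, against 8.88, 9.08 and 8.93 after miR-130a, and the AGO2-bound levels of these groups overlapped. In CCNG1, TRIP4, SNX7, TMEM126B and COPS3 as well, the total arrays of at least 1 microRNA all lay above those of scramble, which was not so for STAM and PFDN2.

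Some ribosomal protein genes also had a larger difference after scramble. RPL11 had AGO2-bound levels of 13.77, 13.92 and 13.77 after scramble, 11.11, 10.54 and 10.36 with miR-130a, 10.02, 9.71 and 9.94 with miR-203 and 12.20, 11.96 and 11.79 with miR-205, with an excess of 3.05 ± 0.17. RPL27 was 14.01, 14.11 and 13.93 in AGO2-bound RNA after scramble and between 11.20 and 11.77 on the other AGO2-bound arrays, an excess of 2.44 ± 0.15. The excess of RPL35 was 2.16 ± 0.16. The total RNA levels of RPL11 lay between 11.15 and 11.48 over all 12 total arrays. These 3 genes were taken up after their values were seen. Of the 52 cytosolic ribosomal protein genes, 15 had a larger and 18 a smaller difference after scramble, where 20.6% and 21.3% of all genes did.

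In the opposite direction, the 8 largest deficits after scramble came from genes that AGO2-bound RNA held more of after 1 or more of the microRNAs. RPA3, part of the complex that coats single-stranded DNA, had AGO2-bound levels of 5.73, 5.61 and 5.68 after scramble and 11.88, 11.68 and 11.23 with miR-205, and 5.19 to 6.21 after the other microRNAs. NDUFV1, of complex I, had 7.17, 6.69 and 6.67 after scramble, 8.95, 9.35 and 8.65 with miR-130a, 11.17, 11.57 and 10.93 with miR-203 and 8.05, 8.45 and 7.57 with miR-205. PRMT1, an arginine methyltransferase, had 7.15, 6.66 and 7.09 after scramble, 10.14, 10.21 and 9.73 with miR-130a and 10.36, 10.23 and 9.27 with miR-205. The differences of these from the mean of the other 3 transfections were -2.45 ± 0.21, -2.94 ± 0.23 and -2.50 ± 0.23. CTSH, cathepsin H, had 8.30, 8.48 and 8.34 after scramble and 12.22, 12.45 and 12.11 with miR-203, a difference of -2.58 ± 0.17. HMOX2, haem oxygenase 2, CHCHD3, of the mitochondrial cristae, MRPL4 and RMND1 stood at -2.87 ± 0.20, -2.79 ± 0.18, -2.53 ± 0.21 and -2.50 ± 0.25. Total RNA differed as well: in each of these 8 genes the total arrays of at least 2 of the microRNAs all lay below those of scramble, for NDUFV1 those of all 3.

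**Figure D5:**
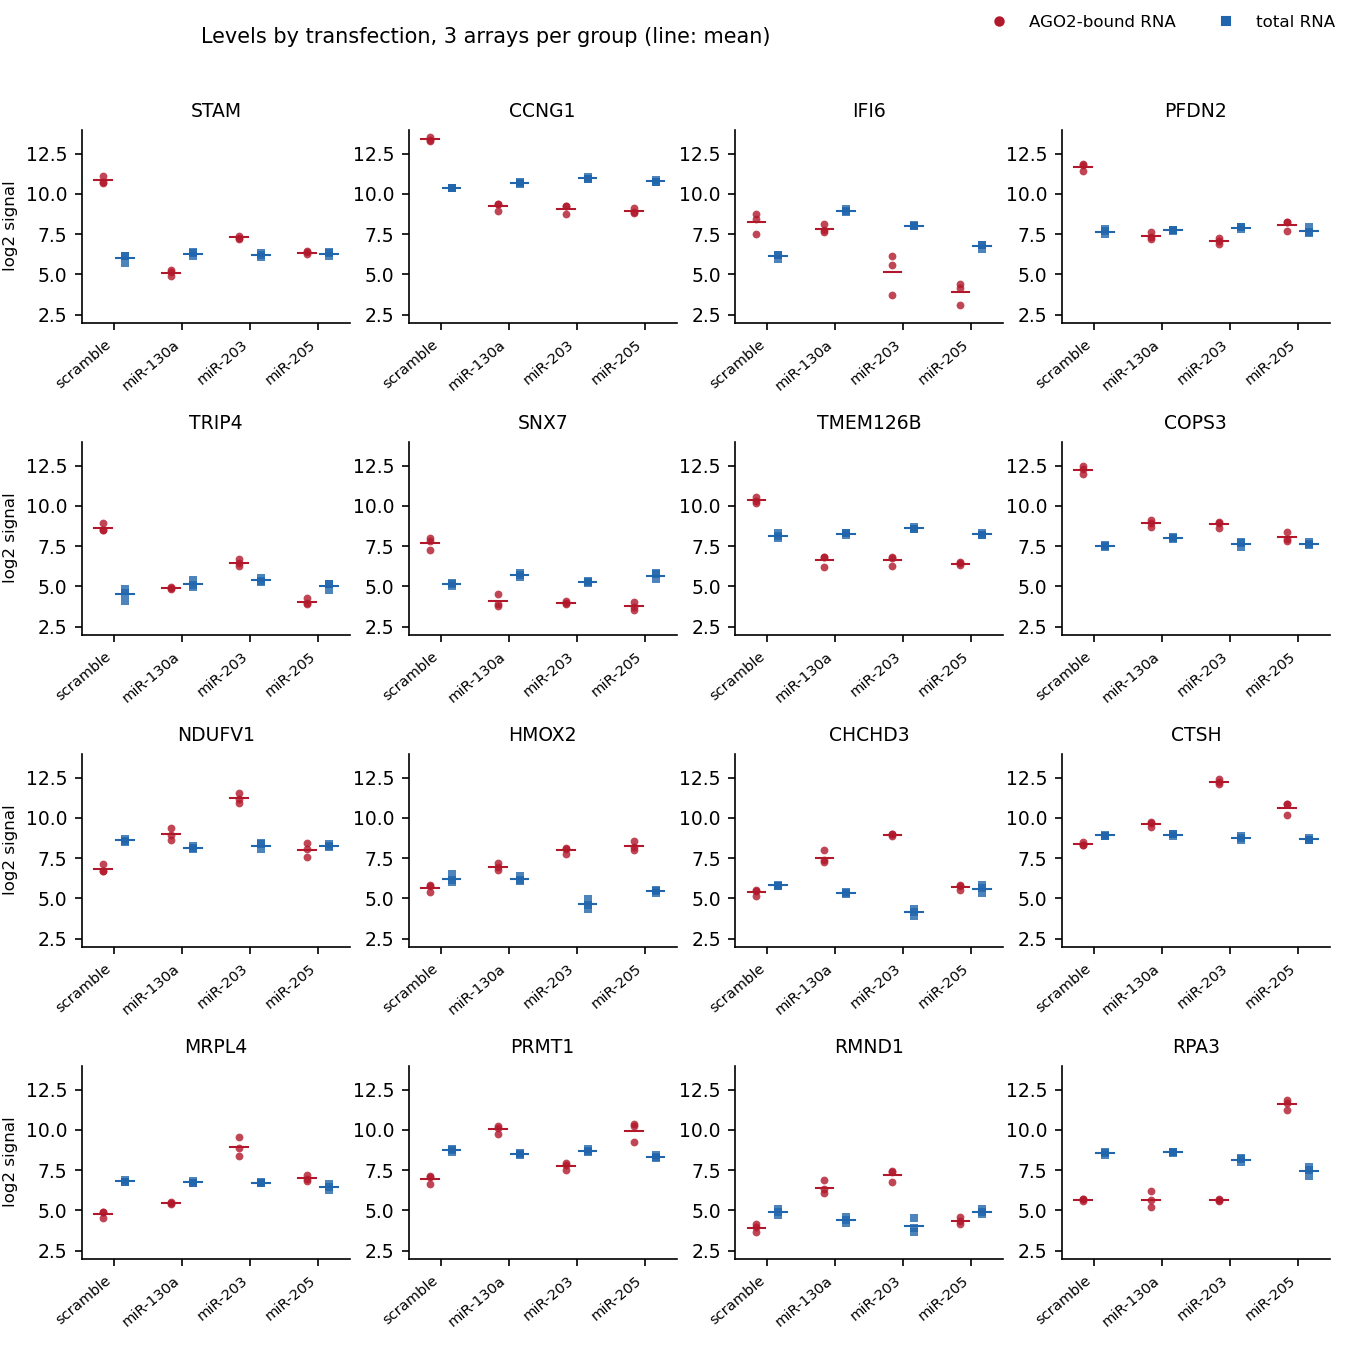
Log2 signal of the 8 genes with the largest excess (upper 2 rows) and the 8 with the largest deficit after scramble (lower 2 rows) in AGO2-bound (circles) and total RNA (squares) of each transfection, with 3 arrays per group and means as lines. In the upper rows the scramble circles stand above those of the 3 microRNAs, least so for IFI6 beside miR-130a, and in the lower rows circles of 1 or more microRNAs stand above those of scramble.

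The interferon list moved most between transfections among the lists with at least 5 tested members. Its median excess after scramble was 0.62, with 15 of 31 genes larger and 4 smaller. The medians of the contrast itself were -0.94, -1.56 and -0.29 after miR-130a, miR-203 and miR-205, beside -0.05 after scramble. A rise of total RNA after a microRNA, as in IFI6, also enlarges this excess, and its part in the list was not tested. For let-7 targets 6 of 16 were larger and 1 smaller after scramble: PLAGL2 had an excess of 1.04 ± 0.19 and DICER1 of 1.21 ± 0.24, and HRAS stood at -1.92 ± 0.16. DICER1 differed by 0.17, -0.29 and 0.21 after the 3 microRNAs, beside 1.24 after scramble. Of the 25 genes of the microRNA pathway 7 were larger and 5 smaller after scramble, near the 20.6% and 21.3% of all genes.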

How the data were processed

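The deposited table holds log2 signals of 22277 probe sets on 24 arrays. R 2.9.0, GCRMA and RMA are named in the submitters' processing notes, with no order or role, and the lowest value differs between 3 sets of arrays. No further step is described in the labels. Of the probe sets, 19064 had 1 gene symbol in the platform annotation, 1043 had several, 2108 were unnamed and 62 are controls. The 19052 matched to RefSeq (GRCh38.p14) needed 0 symbol updates. The probe set with the highest mean stood for a gene, and 6782 of 11963 genes had a mean at or above the median of probe sets (2.85). A model of 8 groups over all 24 arrays was fitted with limma 3.58.1 in R 4.3.3 (lmFit, eBayes), with Benjamini-Hochberg adjustment over all 6782 genes. Array signals give no read depth, and precision is limited by having 3 arrays per group. The AGO2-bound against total comparison, tested on simulated data, recovered 64.2% of 1.5-fold, 94% of 2-fold and 100% of 4-fold changes, with 10 false calls among 6782 genes of which 200 were changed. The simulated noise was independent between arrays, and far fewer genes were changed than the 72.9% called in the data. Most same-numbered AGO2-bound arrays deviated together in the data, so these rates hold for the simulated setting only. Members and lists were chosen with earlier results of these data known. Genes named were the 12 largest changes each way, the brightest genes with the other group at the floor, the 4 members of a list with the smallest p, the 8 each way with the largest smallest difference over 4 transfections, the 8 each way with the largest difference between scramble and the other 3, and the brightest genes, and further list members were named after their values were seen. All columns of the table were used, and 1 control measure is not reported here. Alternatives were filters, probe set choice, scaling, arrays in the fit, eBayes settings, array weights, a replicate block, a 2-fold test and leaving out each scramble array.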

Additional observations from a re-analysis of the deposited data

Results flagged for a closer look

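The difference between AGO2-bound and total RNA after scramble departed from that after the added microRNAs, in a test of the difference itself. It was larger at 1396 genes and smaller at 1443 when set against the mean of the other 3 transfections, and larger at 1470 and smaller at 1430 against miR-205 alone. The 8 genes with the largest excess were STAM (4.85), CCNG1 (4.75), IFI6 (4.41), PFDN2 (4.31), TRIP4 (4.18), SNX7 (4.17), TMEM126B (4.03) and COPS3 (3.87), all on the log2 scale. The 8 with the smallest difference relative to the others were NDUFV1 (-2.94), HMOX2 (-2.87), CHCHD3 (-2.79), CTSH (-2.58), MRPL4 (-2.53), PRMT1 (-2.50), RMND1 (-2.50) and RPA3 (-2.45).

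Control probe sets that enter no comparison of genes differed between the kinds of RNA after scramble. The mean of the 18S ribosomal RNA probe sets was higher in AGO2-bound RNA by 4.23 and that of the Bacillus spike probe sets by 2.15 on the log2 scale. On AGO2-bound arrays of the other transfections the 18S mean ran from 7.35 to 9.05, against 3.32 to 3.87 on the total arrays. Groups of 3 arrays were not tested for single outlying arrays.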

How the results depend on the processing

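Genes higher and lower in AGO2-bound RNA numbered 2242 to 2339 and 2398 to 2489 when 1 scramble array was left out, against 2378 and 2565 with all. The genes with a larger or smaller difference after scramble than in the other 3 transfections numbered 1145 to 1356 and 1220 to 1366, and against miR-205 alone 1295 to 1434 and 1303 to 1385. Counts moved by over 1.5 times with the test beyond 2-fold, which gave 990 higher and 646 lower, 152 larger and 71 smaller against the other 3, 188 larger and 354 smaller against miR-205, and 338 higher and 137 lower in all 4 transfections. With every probe set tested apart, 3239 probe sets were higher and 3895 lower, a larger number of features. The labels do not say whether replicate numbers pair AGO2-bound with total arrays. Same-numbered scramble arrays of the 2 kinds deviated with correlations of -0.13, 0.05 and 0.08, which cannot settle whether they came from the same culture. With a replicate block 2367 genes were higher and 2556 lower, 1355 larger and 1407 smaller against the other 3, and 1427 and 1388 against miR-205. A replicate block of number within each kind of RNA, chosen after seeing the data, gave 2475 and 2690, 1616 and 1649, and 1761 and 1607. Quantile scaling gave 2190 higher and 2845 lower, and gave RPS24 a difference of -0.079 in place of 0.40, where the cause was not tested. Of 2924 values of 163 named genes under alternatives, 2889 kept direction and side of the threshold, 27 lost the call and 7 gained it. The 16 genes named for scramble against the others kept theirs in all 256 values. The floor limits what is measured of dim transcripts. Taking GAPDH or ACTB alone for the 3′ to 5′ difference gave 0.63 and 1.18, against 0.90 for their mean.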
